A study of Danio rerio with 3 samples.

Results

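The genes followed here are 10 zebrafish genes of heme synthesis and of the red cell membrane, chosen by symbol. *alas2*, *alad*, *hmbsa*, *hmbsb*, *uros*, *urod*, *cpox* and *fech* encode enzymes of heme synthesis, and *slc4a1a* and *epb41b* encode proteins of the erythroid membrane. Each symbol matched 1 row of the count matrices, so the set was 10 of 32521 features. Their levels were compared between erythroid cells and all other cells, and between larvae with and without disruption of *sema4ab*, a semaphorin gene.

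The gSema4ab larvae were somatic mutants injected with highly active crRNAs (haCRs) against *sema4ab*, and the gControl larvae had received a control gRNA. The spinal cord of all larvae was lesioned at 3 dpf (days post-fertilization), and trunk tissue around the lesion was taken at 4 dpf, 1 day later. Each sample was a pool of 50 larvae, from which viable cells were sorted for 3′ single-cell RNA sequencing, with 2 technical repeats of gSema4ab (gSema4abR1 and gSema4abR2) and 1 gControl library. Somatic mutants can be mosaic, all groups were lesioned, and the labels name the tissue spinal cord although skin, muscle and blood cells were present. Values are counts of unique molecular identifiers (UMIs), each marking 1 captured mRNA molecule, given as CPM, that is, scaled to the summed UMIs of the cells of a library that are compared. Each condition was 1 sample, so no test between conditions was possible, intervals are 95% intervals for counting error only, and the spread between gSema4abR1 and gSema4abR2 is technical.

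Heme is built by a chain of enzymes that begins and ends in mitochondria and passes through the cytosol, and erythroid cells make most of it, for hemoglobin. *alas2* encodes the erythroid form of the first enzyme, and *alad*, *hmbsa*, *hmbsb*, *uros* and *urod* encode the cytosolic enzymes that build, close and trim the porphyrin ring. *cpox* and *fech* act in mitochondria, where *fech* encodes the ferrochelatase that inserts iron. *hmbsa* and *hmbsb* are paralogs for hydroxymethylbilane synthase. *slc4a1a* encodes the band 3 anion exchanger of the red cell membrane, and *epb41b* encodes a protein 4.1, which links spectrin and actin to that membrane.

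After quality control 12079 cells of gSema4abR1, 11940 of gSema4abR2 and 12247 of gControl were left, with 113423532, 114267348 and 122658355 UMIs. Pairs of libraries shared 46 to 67 barcodes. Over all barcodes before quality control, *sema4ab* was at 29.2 and 30.2 CPM in gSema4abR1 and gSema4abR2 and at 50.0 CPM in gControl. Counts per gene do not show whether the target site was intact, and reads at that site were not analysed here. None of the 10 genes was used for clustering. Of 46 clusters, 1 showed all 10 precursor markers and is called erythroid precursor-like; *mki67*, a marker of dividing cells, was detected in 82.9%, 84.9% and 80.3% of its cells in gSema4abR1, gSema4abR2 and gControl. A further 2 clusters, with embryonic globin genes among their leading genes, are called red blood cell-like. They showed 10 and 11 of 12 red cell markers but also 7 of the 10 precursor markers each. The precursor-like cluster showed 4 of the 12 red cell markers.

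Globin genes took 11.5%, 14.5% and 10.1% of the UMIs of precursor-like cells in gSema4abR1, gSema4abR2 and gControl, and 72.0%, 75% and 65.3% of those of red blood cell-like cells. Globin shares were thus higher in both gSema4ab libraries. Precursor-like cells were 3.20% of cells in gSema4abR1, 2.61% in gSema4abR2 and 2.61% in gControl, a log2 ratio of 0.15 (-0.04 to 0.35). Red blood cell-like cells were 11.6%, 10.9% and 11.4% (log2 ratio -0.02, -0.11 to 0.07), so no difference in either share was detectable at this depth. Within them, the globin-richest cluster held 174 and 193 cells of gSema4abR1 and gSema4abR2, against 74 cells of gControl.

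All 10 genes were at least 4-fold higher in erythroid precursor-like cells than in all other cells in every library, which held for 1.38% of 25058 genes. Their median log2 difference was 4.64, against -1.38 over all genes, which were taken without a CPM minimum. The membrane genes stood out most. *slc4a1a* was at 1519, 1496 and 1689 CPM in precursor-like cells of gSema4abR1, gSema4abR2 and gControl, against 11.6, 7.03 and 6.11 CPM in other cells, a mean log2 difference of 7.62. *epb41b* followed with 6.45. Among the enzymes *hmbsb* differed most, with 5.83, and *fech* least, with 3.59. The median precursor-like cell held UMIs of all 10 genes, and the median other cell held none.

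In red blood cell-like cells the set split. *alas2*, *uros*, *slc4a1a* and *epb41b*, 4 of the 10 genes, were at least 4-fold above other cells in every library, which held for 1.1% of genes. *alas2* was at 1259, 1106 and 1804 CPM in red blood cell-like cells of gSema4abR1, gSema4abR2 and gControl, against 8.42, 7.42 and 8.19 CPM in other cells. No other enzyme gene of the set reached these levels in any of 33 cell groups. *hmbsa* depended on the denominator, with a mean log2 difference from other cells of -0.90 per UMI and 0.88 per non-globin UMI. The other 9 genes were higher on average on both scales. *fech* and *alad* averaged 3.00 and 2.31 per non-globin UMI, against 1.22 and 0.53 per UMI. For *cpox* the libraries differed in sign per UMI, at 0.21, -0.28 and 1.08 in gSema4abR1, gSema4abR2 and gControl. In the larger red blood cell-like cluster, without the globin-richest one, *cpox* was at 3.81, 4.78 and 8.12 CPM, below other cells in every library. *alad* there was at 13.1, 10.8 and 13.3 CPM, below other cells in both gSema4ab libraries and above them in gControl.

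Between the erythroid stages, *hmbsa*, *hmbsb*, *cpox*, *fech*, *urod* and *alad* were at least 4-fold higher in precursor-like than in red blood cell-like cells in every library per UMI, a difference that 28.5% of 14533 genes also showed. Per non-globin UMI 3 of these 6 genes passed, *hmbsa*, *hmbsb* and *cpox*, as did 10.4% of 14519 genes. *fech*, *urod* and *alad* were still higher in precursor-like cells on that scale, by 0.77, 1.36 and 2.01 on average on the log2 scale. *cpox*, for example, had 353, 338 and 324 CPM in precursor-like cells of gSema4abR1, gSema4abR2 and gControl, against 17.3, 10.6 and 26.1 CPM in red blood cell-like cells. *alas2* was the only member at least 4-fold lower in precursor-like cells, as were 2.45% of genes per UMI and 13.7% per non-globin UMI. *alas2* had 227, 240 and 239 CPM there, below every red blood cell-like library. Per UMI *uros* overlapped between the stages, at 118, 113 and 113 CPM in precursor-like cells and 114, 92.6 and 132 CPM in red blood cell-like cells. Per non-globin UMI it was lower in precursor-like cells in every library, with a mean log2 difference of -1.57, and so was *epb41b*, with -1.75, against -0.15 per UMI. *slc4a1a* was higher in precursor-like cells by 1.19 on the log2 scale per UMI but lower per non-globin UMI, at -0.41. Red blood cell-like cells pool the globin-richest cluster with a larger one. Against the globin-richest cluster alone, only *hmbsa* was at least 4-fold higher in every library per UMI, as were 25.8% of 12993 genes. In gControl, *hmbsb*, *cpox*, *urod* and *alad* were lower in precursor-like cells than in that cluster per non-globin UMI. Their log2 differences were -0.74, -0.53, -0.44 and -0.14, while both gSema4ab repeats had them higher, *urod* by 0.23 in gSema4abR1. The gControl values rest on 74 cells of that cluster, with 87 UMIs of *urod* and 55 of *alad*. This turn between the conditions was not tested.

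**Figure D1:**
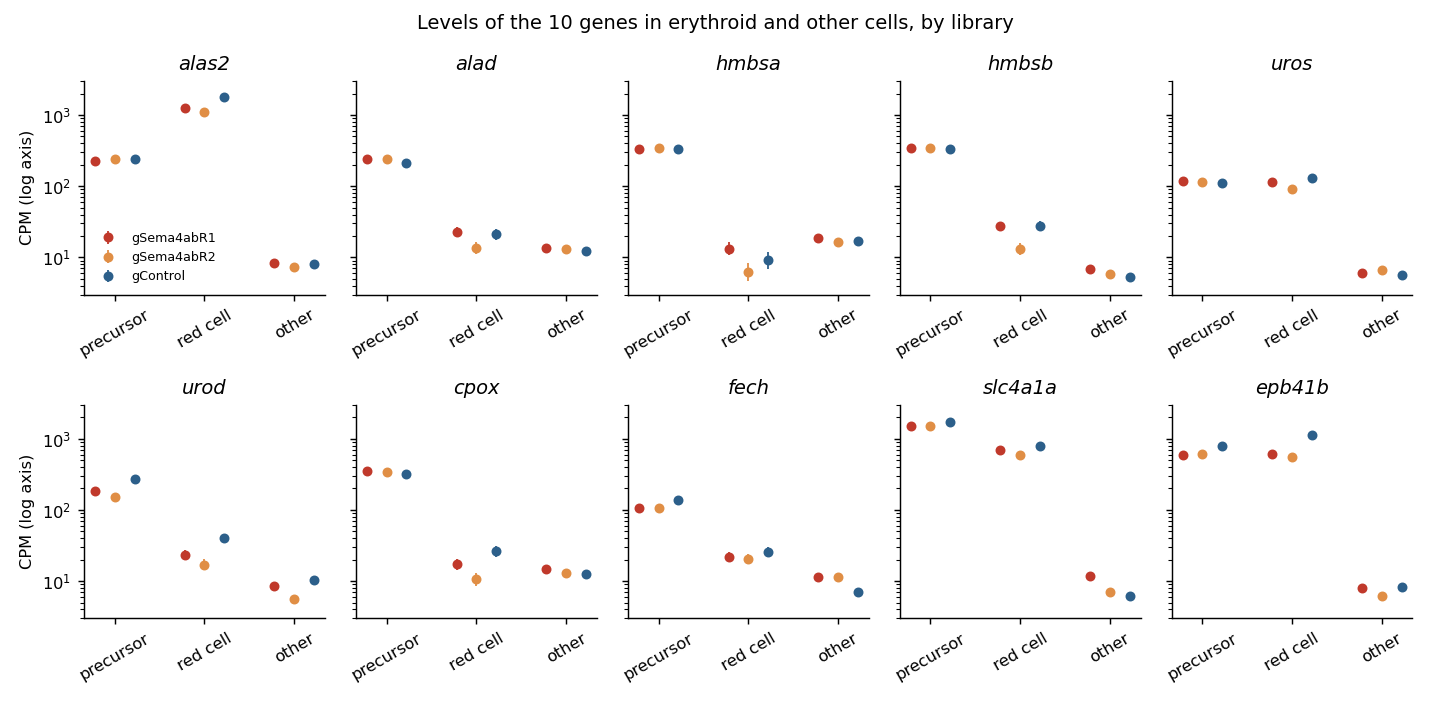
Level of each gene in CPM (log axis) in erythroid precursor-like, red blood cell-like and all other cells; points are libraries and bars 95% Poisson intervals. *alas2* is highest in red blood cell-like cells, at 1106 to 1804 CPM, while *hmbsa*, *hmbsb*, *cpox*, *fech*, *urod* and *alad* are highest in precursor-like cells.

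Over 50% of the UMIs of *alad*, *hmbsa*, *hmbsb*, *urod* and *cpox* came from the few precursor-like cells in every library, while *uros* had 44.9%, 40.9% and 36.5% there in gSema4abR1, gSema4abR2 and gControl. Precursor-like cells held 79.5%, 80.7% and 76.0% of all *hmbsb* UMIs in gSema4abR1, gSema4abR2 and gControl, while red blood cell-like cells held 74.8%, 75.1% and 79.6% of all *alas2* UMIs. *fech* had 48.2%, 51.3% and 40.9% of its UMIs in other cells, and *alad* had 34.9%, 38.1% and 45.4%. A share of UMIs depends on both the number of cells and the RNA per cell. Precursor-like cells numbered 386, 312 and 320 in gSema4abR1, gSema4abR2 and gControl, with medians of 23857, 25947.5 and 22095 UMIs. Red blood cell-like cells numbered 1398, 1301 and 1396, with medians of 4420, 5284 and 3890 UMIs.

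Erythroid cells were then binned by the share of their UMIs from globin genes, and levels were taken as CPM of the non-globin UMIs. Bins are ranges and not cell types. *alas2* in gSema4abR1 was at 9.55, 112, 551, 2846, 4833 and 4671 at globin shares of 0 to 2, 2 to 10, 10 to 40, 40 to 65, 65 to 75 and 75 to 100%. In gSema4abR2 it was at 7.24, 97.0, 477, 2314, 4535 and 4541, and in gControl at 21.7, 160, 648, 4720, 5413 and 5664. *alas2* thus rose steeply up to 65 to 75% globin and changed little above that.

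*hmbsa*, *hmbsb*, *cpox*, *alad* and *urod* followed another course and were highest between 10 and 65% globin in each library. *hmbsa* reached 620, 631 and 591 at 10 to 40% in gSema4abR1, gSema4abR2 and gControl, against 40.1, 45.2 and 22.1 at 65 to 75%. Above 75%, where gControl had 86 cells, *cpox* was at 47.1, 41.6 and 196. *uros* did not fall in this way and was at 412, 422 and 487 above 75% globin. At 40 to 65%, precursor-like cells were 10.9%, 20.1% and 3.14% of the cells of gSema4abR1, gSema4abR2 and gControl, and the part of this mix in the levels of that bin was not tested.

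**Figure D2:**
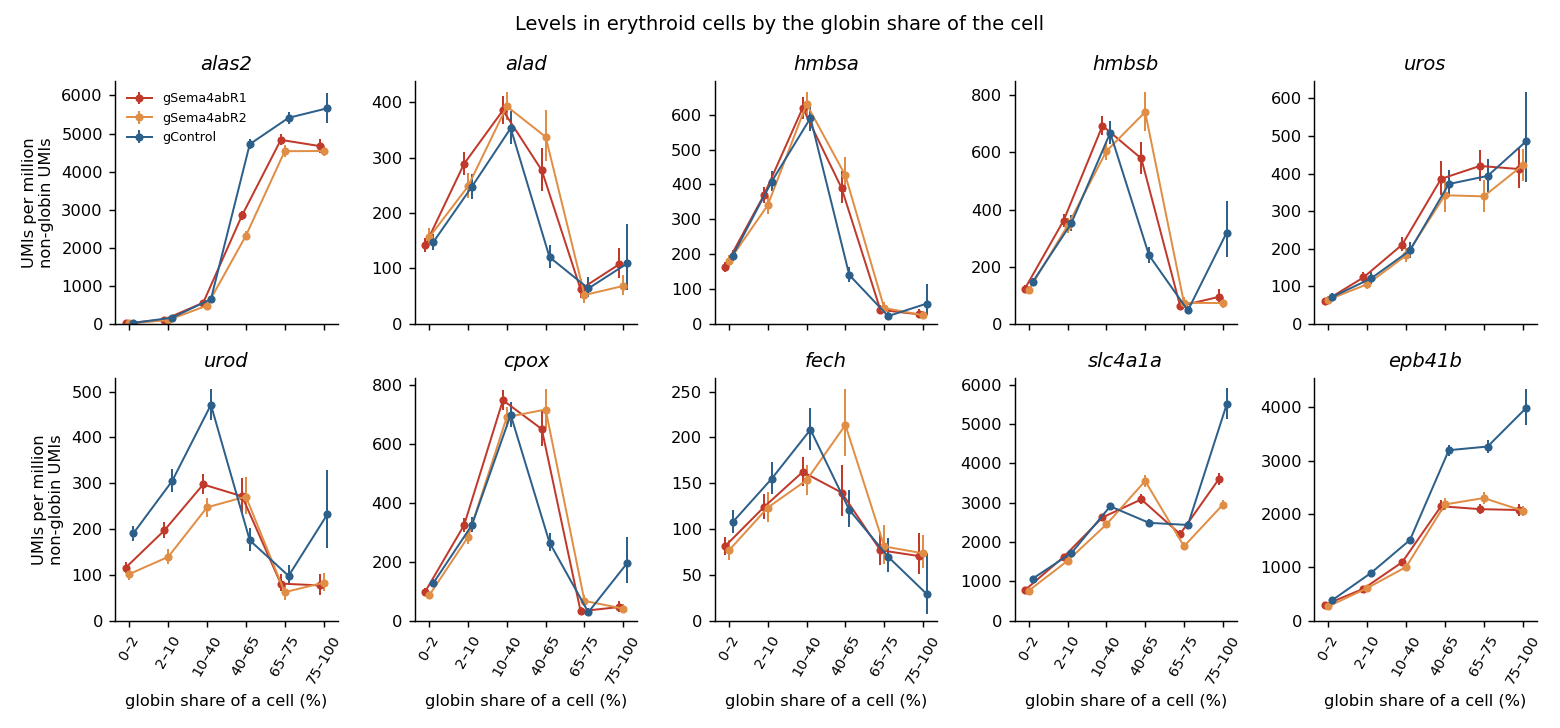
Level of each gene in erythroid cells, as CPM of the non-globin UMIs, by the globin share of the cell in percent (6 bins); lines are libraries and bars 95% Poisson intervals. *alas2* and *uros* are high in the globin-rich bins, and *hmbsa* peaks at 10 to 40% globin, at 591 to 631.

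Correlations of log2(CPM + 10) were taken over the 46 clusters. They restate cluster levels, and clusters share libraries and depth, so these are descriptions. *alas2* correlated with *epb41b* (Pearson r = 0.95), *slc4a1a* (r = 0.91) and *uros* (r = 0.87), and little with *hmbsa* (r = 0.13). Among 11582 genes, the most like *alas2* were si:ch211-207c6.2 (r = 0.99), zgc:163057 (r = 0.98), *cahz* (r = 0.98), *nt5c2l1* (r = 0.975) and *gp9* (r = 0.97), of which *cahz* encodes a carbonic anhydrase. The most like *slc4a1a* were *rhd*, *epb41b*, *klf1* and *nmt1b* (each r = 0.95) and *hdr* (r = 0.94). *klf1* encodes an erythroid transcription factor. *cahz*, *nt5c2l1* and *klf1* were among the markers that named erythroid clusters, and markers were not kept out of the clustering. Their likeness to members is thus not independent of the clusters.

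For *cpox*, 4 of the 5 most similar genes were members: *urod* (r = 0.83), *alad* (r = 0.81), *hmbsb* (r = 0.80) and *hmbsa* (r = 0.78), followed by *suv39h1b* (r = 0.75). *urod* was most like *hmbsb* (r = 0.87), *drl* (r = 0.85), *drll.2* (r = 0.83), *cpox* (r = 0.83) and zgc:110249 (r = 0.77). *hmbsb* was most like *drl* (r = 0.87), *urod* (r = 0.87), *hdac7b* (r = 0.86), *cpox* (r = 0.80) and *drll.2* (r = 0.79).

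Outside the erythroid clusters, 30 cell groups of at least 50 cells differed in which enzyme gene they held. An unnamed cluster with *csf1rb*, *cxcr3.2* and *syk* among its leading genes had the most *hmbsa*, at 40.5, 38.9 and 42.2 CPM in gSema4abR1, gSema4abR2 and gControl, above every library of the next of these groups, ionocyte-like cells. It also had the most *alad*, at 24.4, 25.3 and 27.4 CPM, and the highest mean of *cpox*. For *cpox* it overlapped with macrophage/microglia-like, neutrophil-like and ependymo-radial glia-like cells. Another unnamed cluster ranged more widely, at 47.1, 20.2 and 7.07 CPM of *cpox*, but from 28, 26 and 1 UMIs in 35, 69 and 10 cells. Macrophage/microglia-like cells had the most *urod*, at 24.1, 18.0 and 35.2 CPM, but overlapped with the *csf1rb* cluster and with neutrophil-like cells. Oligodendrocyte-like cells had the most *uros*, at 36.2, 52.3 and 28.5 CPM from 14, 20 and 12 UMIs, above the 15.5 to 20.4 CPM of enteric nervous system-like cells.

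For *alas2*, other cells held 2.09, 1.63 and 3.27 UMIs per 1000 globin UMIs in gSema4abR1, gSema4abR2 and gControl, close to the 1.75, 1.48 and 2.76 of red blood cell-like cells. Whether these *alas2* levels were background or expression was not tested. Part of the *slc4a1a* UMIs in other cells lay in few cells: 21, 9 and 22 cells with at least 7 of the 10 genes held 51.6%, 26.1% and 43.8% of them.

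**Figure D3:**
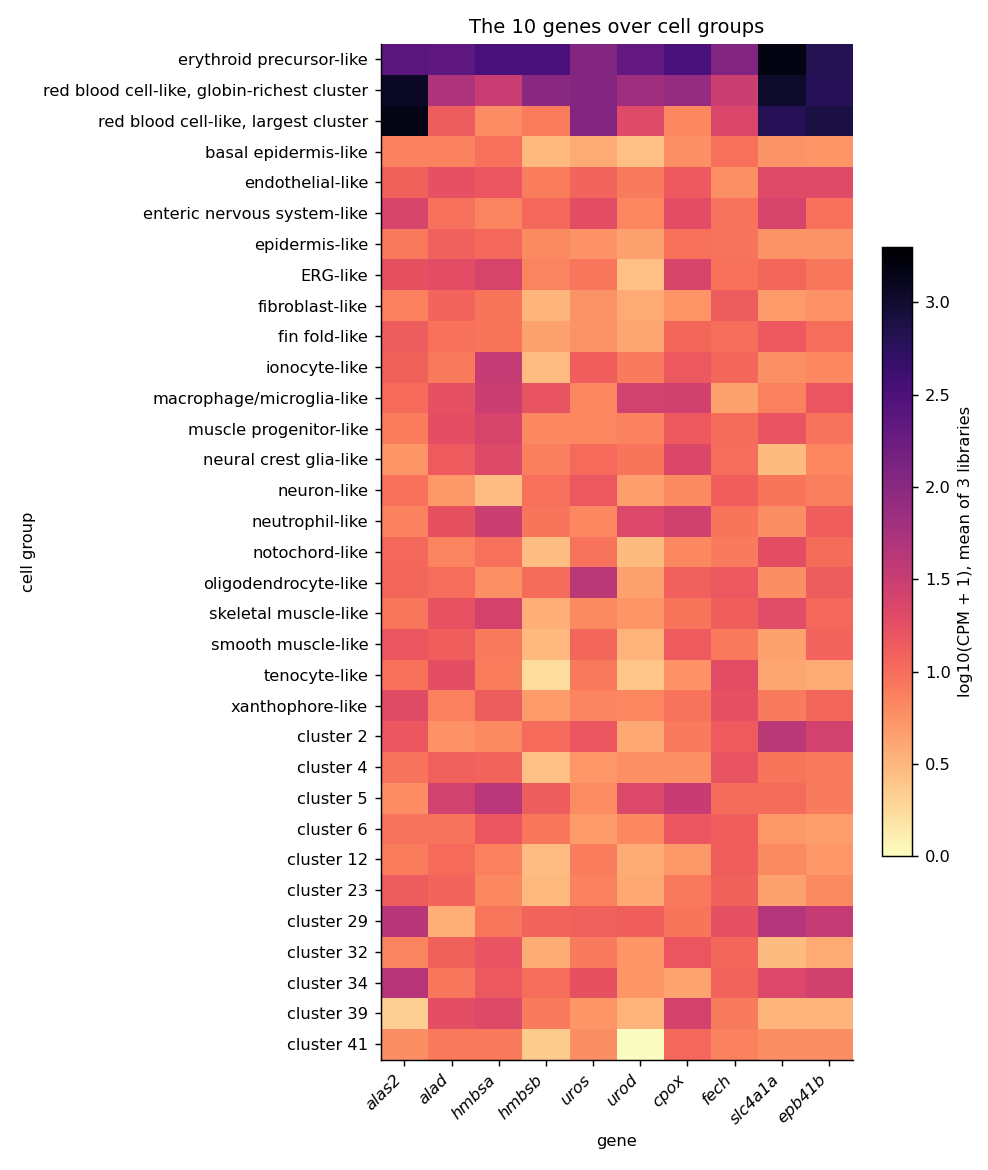
Mean level over 3 libraries, as log10(CPM + 1), of the 10 genes in 33 cell groups of at least 50 cells. The highest level of each gene lies in an erythroid group, though not every erythroid group is above all others. Outside the erythroid groups *hmbsa* is highest in cluster 5, at a mean of 40.5 CPM, and *uros* in oligodendrocyte-like cells, at 39.0 CPM.

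The hydroxymethylbilane synthase paralogs were detected in different proportions. *hmbsa* made up 49.0%, 49.9% and 50.6% of their joint UMIs in precursor-like cells of gSema4abR1, gSema4abR2 and gControl. Among red blood cell-like cells its share was 32.6%, 32.4% and 24.9%. In all other cells its share was 73.2%, 73.5% and 76.1%. Neuron-like cells went the other way, with 19.0% (9.87% to 31.4%), 17.1% (6.56% to 33.7%) and 14.3% (5.43% to 28.5%). Ionocyte-like cells held nearly only *hmbsa*, with 95.2%, 89.5% and 98.4%. How reads shared by the paralogs were assigned, and whether both are captured equally, was not tested, so the shifts between cells are described rather than the shares.

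**Figure D4:**
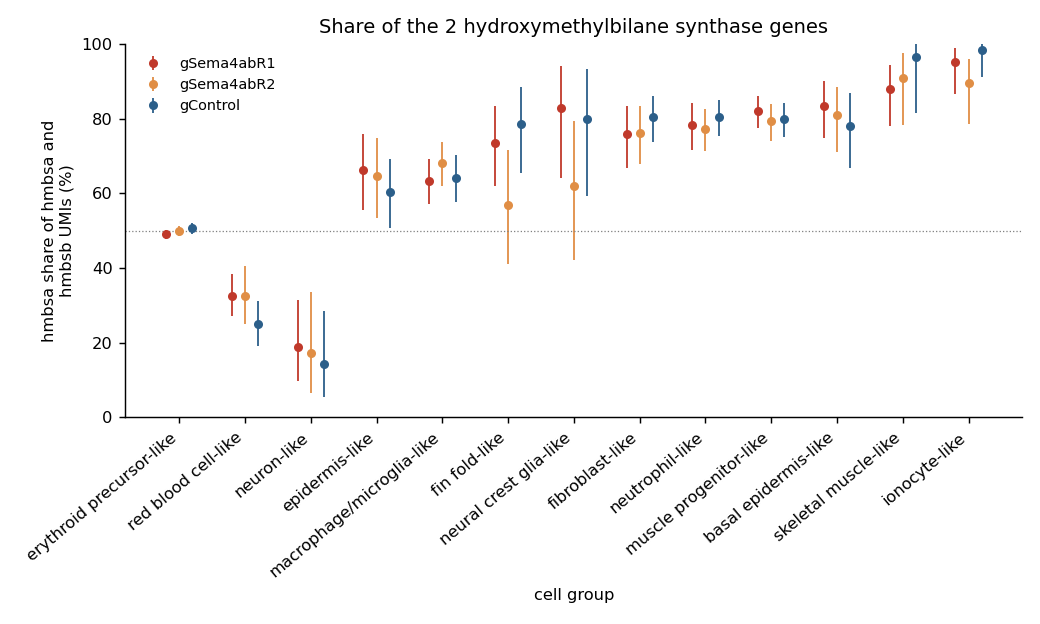
Share of *hmbsa* in the joint UMIs of *hmbsa* and *hmbsb*, in percent, by named cell group with at least 20 such UMIs in each library; points are libraries and bars 95% binomial intervals. Precursor-like cells lie at the dotted line of 50%, neuron-like cells at 14.3 to 19.0% and ionocyte-like cells at 89.5 to 98.4%.

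Between the conditions, most of the pathway was close in erythroid precursor-like cells. *alas2* had 227 and 240 CPM in gSema4abR1 and gSema4abR2, against 239 CPM in gControl (log2 ratio -0.03, -0.12 to 0.05). *hmbsa* had 336 and 339 CPM, against 338 CPM (log2 ratio 0.00, -0.07 to 0.07), and *hmbsb* had 349 and 340 CPM, against 330 CPM. The levels of these 3 genes were nearly equal in all libraries. *uros* had 118 and 113 CPM, against 113 CPM, and *cpox* had 353 and 338 CPM, against 324 CPM. *alad* was slightly higher in both repeats, at 239 and 238 CPM against 215 CPM (log2 ratio 0.15, 0.06 to 0.23).

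*urod*, the gene of the decarboxylase that trims the ring, had the widest gap, with 183 CPM in gSema4abR1 and 151 CPM in gSema4abR2, against 274 CPM in gControl. Its log2 ratio was -0.72 (-0.79 to -0.62), with -0.58 in gSema4abR1 and -0.86 in gSema4abR2, so the repeats lay closer to each other than to gControl. With each cell thinned to 2000 UMIs, 27.4%, 26.9% and 40.25% of precursor-like cells had a *urod* UMI, against 1.39%, 0.962% and 1.71% of other cells. Without thinning, where median depths were 23857, 25947.5 and 22095 UMIs, the shares in precursor-like cells were 92.5%, 91.0% and 96.25%.

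*epb41b* had 593 and 602 CPM in gSema4abR1 and gSema4abR2, against 785 CPM in gControl (log2 ratio -0.39, -0.44 to -0.35). *fech* had 108 and 107 CPM, against 138 CPM (log2 ratio -0.36, -0.48 to -0.25). *slc4a1a* had 1519 and 1496 CPM, against 1689 CPM (log2 ratio -0.16, -0.19 to -0.13). For these 3 genes both repeats were below gControl, by more than the repeats differed.

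None of the 10 genes was at least 1.5-fold higher or lower in both repeats in precursor-like cells, as 1.79% and 2.92% of 1848 genes were; *urod* passed in gSema4abR2 and fell just short in gSema4abR1. The median log2 ratio was -0.02 over the 10 genes and 0.04 over all genes, whose interquartile range was 0.43, against 0.13 for the ratio between the repeats. Scaling by trimmed means (TMM) raised the median of all genes by 0.16, and gave -0.56 for *urod*, -0.24 for *epb41b*, -0.21 for *fech* and -0.01 for *slc4a1a*.

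**Figure D5:**
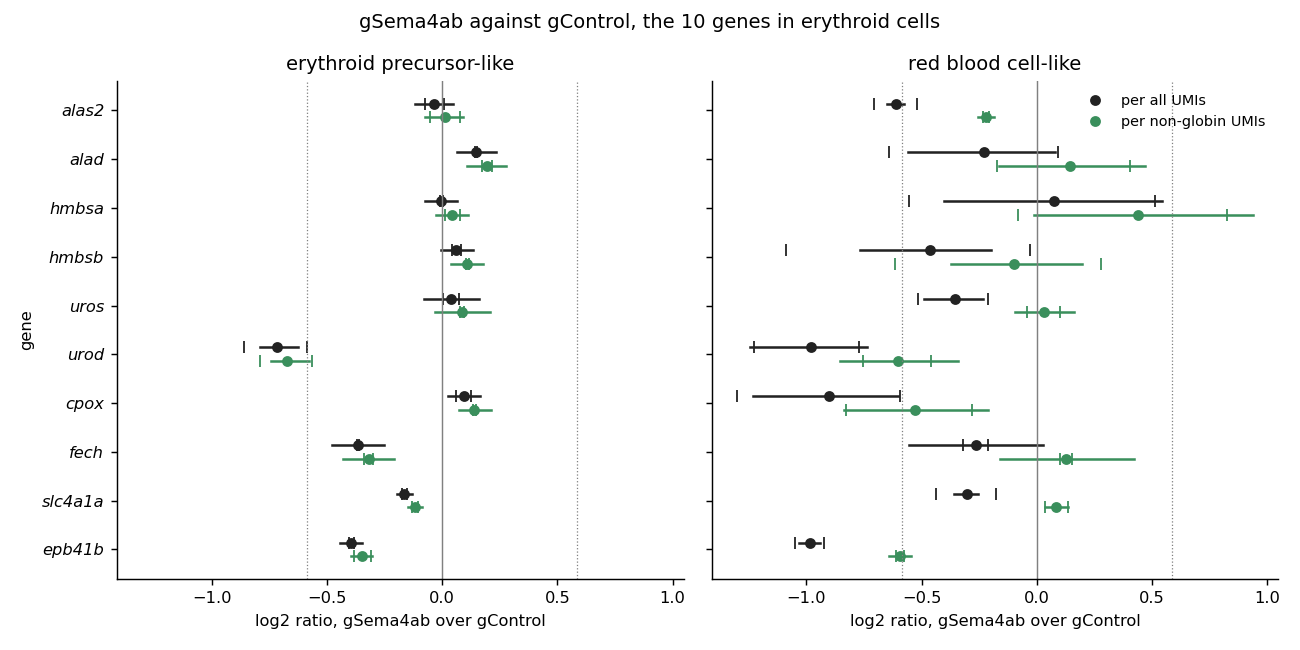
Log2 ratio of gSema4ab over gControl for each gene in erythroid precursor-like cells (left) and red blood cell-like cells (right), per all UMIs and per non-globin UMIs, with 95% counting intervals. *urod* (-0.72 and -0.98 per UMI) and *epb41b* (-0.39 and -0.98) lie left of 0 in both panels on both scales; *slc4a1a*, *uros*, *fech* and *alad* change sides with the scale in red blood cell-like cells, as do *alas2* and *hmbsa*, at -0.03 and 0.00 per UMI, in precursor-like cells. With TMM *alas2* and *hmbsb* change sides in red blood cell-like cells too.

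In red blood cell-like cells, 79.9% of 702 genes and 4 of 4 tested members were lower in both gSema4ab repeats per UMI, with a median log2 ratio of -0.43, beside the larger globin share there. At least 1.5-fold lower in both repeats were 30.6% of genes, and 1.85% were higher. Among these members, *epb41b* alone was at least 1.5-fold lower, with 603 and 552 CPM in gSema4abR1 and gSema4abR2, against 1143 CPM in gControl (log2 ratio -0.98, -1.03 to -0.94). *alas2* had a log2 ratio of -0.61 per UMI, -0.22 per non-globin UMI and 0.00 with TMM, so its direction was not kept. *uros* and *slc4a1a* also turned, to 0.03 and 0.08 per non-globin UMI, and so did *fech* and *alad*, from fewer UMIs, with -0.26 and -0.23 per UMI and 0.13 and 0.14 per non-globin UMI.

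Non-globin scaling raised the median of all genes by 0.39, to -0.04, and TMM raised it by 0.61, to 0.19. *epb41b* stayed below these medians, with log2 ratios of -0.59 per non-globin UMI and -0.37 with TMM. Per non-globin UMI, 0 of 9 members passed 1.5-fold in both repeats, against 12.7% of genes lower and 3.36% higher. *urod* had 23.4 and 17.0 CPM, against 39.9 CPM in gControl, a log2 ratio of -0.98 (-1.25 to -0.74) from 166, 130 and 229 UMIs, or -0.60 per non-globin UMI and -0.38 with TMM. The ratios of *hmbsa*, *alad* and *fech* had intervals that held 0 on both scales. That of *cpox* was -0.90 (-1.23 to -0.60) per UMI and -0.53 per non-globin UMI, from 123, 81 and 150 UMIs. Over 12 other settings *urod*, *epb41b* and *cpox* remained lower in red blood cell-like cells, *cpox* at -1.44 to -0.05. Over 11 settings *urod*, *epb41b*, *fech* and *slc4a1a* remained lower in precursor-like cells, *slc4a1a* at -0.28 to -0.007, and *alad* remained higher.

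In the globin-richest cluster all 10 genes were lower in both repeats on both scales. So were 73.7% of 543 tested genes per UMI and 54.0% of 1924 per non-globin UMI. Of 8 members with enough UMIs, *hmbsb*, *cpox*, *urod*, *alad*, *slc4a1a* and *epb41b* were at least 1.5-fold lower, 6 in all, where 27.6% of genes were. Per non-globin UMI 5 of 10 were, where 19.1% of genes were. Cells with all 10 genes, as found in precursor-like cells, were 9 of 174 in gSema4abR1, 1 of 193 in gSema4abR2 and 8 of 74 in gControl, and their part in these ratios was not tested. Without this cluster, *epb41b* was at -0.88 and *urod* at -0.93 in red blood cell-like cells.

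Within bins of globin share, per non-globin UMI, *epb41b* was lower in gSema4ab in each of 6 bins, at -0.95 to -0.45 on the log2 scale. *urod* was lower in 5 of 6 bins, at -0.81, -0.86 and -0.79 up to 40% globin, and higher by 0.63 at 40 to 65%. Precursor-like cells were 10.9% and 20.1% of gSema4abR1 and gSema4abR2 cells at 40 to 65%, against 3.14% in gControl. At 10 to 40% they were 87.2% and 93.2%, against 80.3%. The part of this mix in these ratios was not tested. *alas2* was lower in each of 6 bins, with -1.35 in the bin of 0 to 2% globin and -0.21 in that of 65 to 75%. Weighting the bins as in gControl gave -0.41 for *alas2* in precursor-like cells, where the unweighted ratio was -0.03. *cpox* went both ways over the bins, with -0.45, -0.09 and 0.04 up to 40% globin. It was higher by 1.36 at 40 to 65% and by 0.76 at 65 to 75%. Above 75%, where gControl had 86 cells, *cpox* was lower, at -2.15.

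In all other cells *urod* was again lower, with 8.47 and 5.69 CPM in gSema4abR1 and gSema4abR2, against 10.3 CPM in gControl (log2 ratio -0.54, -0.66 to -0.43, with a median of -0.12 over all genes). It was lower in both repeats in 8 of 15 cell groups with at least 20 *urod* UMIs and higher in 3. *fech* went the other way, with 11.4 and 11.2 CPM, against 7.1 CPM (log2 ratio 0.67, 0.56 to 0.79), and was higher in both repeats in 17 of 22 groups. *fech* was the only member at least 1.5-fold higher in both repeats there, as 1.8% of 13258 genes were, and no member was lower by that much, as 8.47% of genes were. *slc4a1a* had 11.6 and 7.03 CPM, against 6.11 CPM, and the repeats lay further apart than gSema4abR2 and gControl. With the few cells holding at least 7 of the 10 genes left out, *slc4a1a* had 5.66 and 5.21 CPM, against 3.45 CPM. The repeats then lay closer to each other than to gControl.

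The other genes of the pathway were counted where they had at least 100 UMIs in erythroid cells, with no CPM minimum. Of 9754 genes that met this, 9.59% were at least 1.5-fold lower and 2.8% higher in both repeats in precursor-like cells. Of the other genes of heme synthesis, *alas1*, the housekeeping form of the first enzyme, had 14.3 and 13.7 CPM in precursor-like cells of gSema4abR1 and gSema4abR2, against 18.0 CPM in gControl. *ppox*, which acts between *cpox* and *fech*, had 32.0 and 30.7 CPM, against 48.6 CPM, and was at least 1.5-fold lower in both repeats per UMI but not per non-globin UMI or with TMM. Of 10 genes of heme and iron transport in mitochondria, 0 passed 1.5-fold in either direction. *tmem14ca*, needed for porphyrin import, had 831 and 826 CPM, against 649 CPM, and *glrx5*, for iron-sulfur clusters, had 386 and 361 CPM, against 350 CPM. *slc25a37*, the erythroid mitoferrin, had 127 and 126 CPM, against 184 CPM.

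Of 7 genes of iron uptake and release, 5 were at least 1.5-fold lower in both repeats in precursor-like cells, beside 9.59% of all genes, and 1 was higher. These counts were the same per non-globin UMI and with TMM. This list and the other lists of pathway genes were chosen with earlier results of these data known, so their counts are descriptions. *tfr1a*, the erythroid transferrin receptor of zebrafish, had 147 and 157 CPM in gSema4abR1 and gSema4abR2, against 372 CPM in gControl (log2 ratio -1.29). In red blood cell-like cells it had 91.1 and 88.6 CPM, against 365 CPM (log2 ratio -2.02, or -1.63 per non-globin UMI). *tfr1a* was thus lower in gSema4ab at both stages. *ireb2*, an iron regulatory protein gene, had 16.5 and 17.4 CPM in precursor-like cells, against 30.02 CPM. *tfr1b*, *steap3* and *aco1* were lower too, all under 40 CPM. *slc11a2*, which carries iron out of endosomes, had 179 and 167 CPM, against 175 CPM, and *slc40a1*, the iron exporter, was higher but under 2 CPM.

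Of 8 other membrane genes, 3 were at least 1.5-fold lower in both repeats in precursor-like cells, beside 9.59% of all genes, and 0 higher. With TMM *dmtn* alone was. *sptb*, for the beta spectrin that protein 4.1 binds, had 225 and 218 CPM, against 362 CPM in gControl. *dmtn*, for the actin-bundling dematin, had 32.2 and 36.3 CPM, against 90.1 CPM, and *kel* had 8.35 and 7.82 CPM, against 13.03 CPM. *rhag* had 443 and 448 CPM, against 576 CPM, and *add2*, an adducin gene, 149 and 142 CPM, against 166 CPM. The *ank1a* feature with more UMIs, *rhd* and *aqp1a.1* had log2 ratios of -0.55, -0.21 and -0.11. Of 11 erythroid transcription factor and receptor genes, 2 were lower by that much, beside the same 9.59%, namely *epor* and *gfi1b*, both named after their values were seen, with 51.4 and 59.8 CPM against 103 CPM for *epor*, and *gfi1b* was no longer so with TMM. The most counted of them, *hemgn*, had 652 and 624 CPM, against 502 CPM. Of 6 genes of heme transport and breakdown, 1 was higher, *hmox2a*, and 1 lower, *slc48a1b*. Both were also named after their values were seen. *slc48a1b* was no longer lower by that much per non-globin UMI or with TMM. The most counted of these 6, *blvrb*, a biliverdin reductase gene, had 477 and 464 CPM, against 397 CPM.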

How the data were processed

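The authors deposited counts of UMIs per gene and barcode, unnormalized; the submitters' processing notes name Cell Ranger 7.1.0 and GRCz11. The labels name a 10x V3 kit. Members and lists were chosen with earlier results of these data known.

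Barcodes with at least 200 genes, 500 to 50000 UMIs, under 20% mitochondrial UMIs and at most 20 UMIs per gene were kept, 13650, 13466 and 13841 in gSema4abR1, gSema4abR2 and gControl. Those with the highest Scrublet scores (scanpy 1.11.5) were removed, 0.8% per 1000 barcodes. Clusters came from Seurat 5.3.0 (R 4.3.3; CCA integration, 2000 variable genes less the listed ones, 30 dimensions, resolution 1). A name needed 3 markers in 10% of cells at 3-fold over the rest; this rule was set after clusters had been seen. A mixed globin and xanthophore cluster of 26 cells was left out of the erythroid and the other cells, but was 1 of the 46 clusters in the correlations.

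UMIs were summed per cell set and library and scaled to CPM. Ratios used 0.5 added UMIs and the mean of both gSema4ab CPM values. Calls between conditions needed 20 UMIs and 50 CPM (5 CPM in other cells). Calls between cell sets had no CPM minimum, so the shares of all genes beside them include genes of low level. Intervals are exact Poisson for levels, exact binomial for shares and exact conditional binomial for ratios. PCR duplicates are collapsed by UMIs. A count of 0 allows up to 3 UMIs. Members are all named; listed genes needed 100 erythroid UMIs, with no CPM minimum, and were named in order of UMIs within a role, with up to 25 in all, and the genes most like 5 members are the 5 with the highest Pearson r. Alternatives were other totals, TMM (edgeR 4.0.16), median-of-ratios, other clusterings, no doublet removal, a globin gate, thinning and leaving out either repeat. Standardising over globin bins and leaving out the globin-richest cluster were added after seeing the data, as were the 5 CPM minimum and the other scalings of the listed genes and of the stages. The calling rule was tested on simulated counts. Python 3.11.15, numpy 2.4.6, scipy 1.17.1, pandas 2.3.3 and matplotlib 3.10.9 were used.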

Additional observations from a re-analysis of the deposited data

Results flagged for a closer look

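For some genes both gSema4ab repeats lay on one side of gControl in one set of cells and on the other side in another set. The difference between the sets was not tested. Values are log2 ratios of gSema4ab over gControl per UMI. *cpox* had 0.09 in erythroid precursor-like and -0.90 in red blood cell-like cells, a difference of 1.00, *hmbsb* had 0.06 and -0.46, a difference of 0.53, and *uros* had 0.04 and -0.35, a difference of 0.39. Between precursor-like and other cells, *fech* had -0.36 and 0.67, a difference of -1.04, and *slc4a1a* had -0.16 and 0.61, a difference of -0.77. Between red blood cell-like and other cells, *cpox* had -0.90 and 0.17 (difference -1.07), *fech* had -0.26 and 0.67 (-0.94), *slc4a1a* had -0.30 and 0.61 (-0.91), *hmbsb* had -0.46 and 0.28 (-0.74) and *uros* had -0.35 and 0.17 (-0.52). Ratios in red blood cell-like cells move with the denominator. There, per non-globin UMI, *fech*, *slc4a1a* and *uros* had 0.13, 0.08 and 0.03, on the same side as in other cells. *cpox* stayed negative, at -0.53. *hmbsb* averaged -0.10, but its repeats split, with 0.28 in gSema4abR1 and -0.62 in gSema4abR2. Some single repeats were also close to 0 per UMI. *hmbsb* had -0.03 in red blood cell-like cells of gSema4abR1, and *uros* had 0.006 in precursor-like cells of gSema4abR2.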

How the results depend on the processing

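The median log2 ratio of gSema4ab over gControl over the 10 genes was -0.02 in precursor-like, -0.41 in red blood cell-like and -0.18 in all erythroid cells. Per non-globin UMI it was 0.0295, -0.0345 and -0.0478. TMM gave 0.14, 0.19 and 0.12, and median-of-ratios size factors gave 0.14, 0.16 and 0.13, so the sign turned in all of these cell sets with TMM and median-of-ratios factors, and in precursor-like cells also per non-globin UMI. Thinning to 2000 UMIs gave -0.0837 in precursor-like cells. Standardising over globin bins, chosen after seeing the data, gave -0.19 in precursor-like and -0.0539 in red blood cell-like cells. Leaving out either repeat gave -0.04 to 0.00, -0.67 to -0.21 and -0.26 to -0.10. Against other cells, the medians of 4.64, 1.76 and 4.07 became 4.82, 3.54 and 4.77 per non-globin UMI and 5.49, 4.29 and 5.29 with TMM. Without doublet removal precursor-like cells gave 4.40, and the gate at 20% globin gave 2.44 for all erythroid cells.

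Genes at least 1.5-fold higher and lower in both repeats numbered 33 and 54 in precursor-like, 13 and 215 in red blood cell-like and 19 and 122 in all erythroid cells. With no minimum they were 1922 and 3955, 1438 and 7673, and 1509 and 5553. TMM gave 97 and 23, 89 and 25, and 102 and 37. Per non-globin UMI, 73 were higher in red blood cell-like and 49 in all erythroid cells. With either repeat alone the counts were 37 to 59 and 70 to 104, 14 and 243 to 334, and 21 to 37 and 149 to 202.

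Single genes turned in red blood cell-like cells, among them *uros* to 0.0303 and *slc4a1a* to 0.0847 per non-globin UMI, *alas2* to 0.00205, *hmbsb* to 0.13, *uros* to 0.25 and *slc4a1a* to 0.31 with TMM, and *hmbsb* to 0.0928, *uros* to 0.22 and *slc4a1a* to 0.27 with median-of-ratios factors. *hmbsb* turned to 0.23 without the globin-richest cluster, also chosen after seeing the data, and to 0.0615 when standardised. In all erythroid cells *uros* and *slc4a1a* turned to 0.15 and 0.0840 with TMM and to 0.16 and 0.0950 with median-of-ratios factors. *cpox* in precursor-like cells turned to -0.0887 when standardised. *fech*, *alad* and *hmbsa*, whose intervals held 0, kept their sign in 8, 7 and 8 of 12 settings in red blood cell-like cells, at -0.42 to 0.35, -0.64 to 0.37 and -0.63 to 0.73. In precursor-like cells *alas2* and *hmbsa* kept theirs in 6 and 7 of 11 settings and *hmbsb*, *cpox* and *uros* in 10 each. In all erythroid cells *hmbsa* kept its sign in 5 of 13 settings, *uros* and *slc4a1a* in 11 each and *hmbsb* and *cpox* in 12 each. The causes were not tested. No paired analysis was possible because gControl was 1 library whose label carries no replicate number. With 1 pool of larvae per condition, variation between larvae is unknown.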
